A study of Homo sapiens with 38 samples.

Results

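The 49 genes described here encode the machinery of cell division, from the switch into DNA synthesis to the separation of chromosomes. They were listed by known function, and a probe was assigned to 48 of them through the transcript accession it targets, UBE2C being the exception. These 48 genes stand among 19720 genes with a probe on the arrays, and 58 of the 34127 probes belonged to them. Where a gene had several probes, the probe with the highest mean over the 38 arrays was used. Of the 48 probes used, 47 were well above background on every array, and AURKB was so on 37.

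The study exposed A549 cells, a cancer-derived human alveolar epithelial line, to fumed amorphous silica nanoparticles (SiO2 NPs) and measured RNA on single-colour (Cy3) Agilent 44K arrays. Exposed and control cells alike were kept in serum-free medium during exposure. For 24 h, cells received 0.1 or 1.0 µg/cm2 (set A, n = 4 arrays each, with 4 controls), 1.5 µg/cm2 (set B, n = 4, with 4 controls), or 3.0 or 6.0 µg/cm2 (set C, n = 3 each, with 3 controls), and for 72 h they received 3.0 or 6.0 µg/cm2 (n = 3 each) beside 3 controls kept for 72 h, also in set C. Titles number 4 biological replicates in the lower-dose groups whereas the methods name triplicate cultures, so p-values may partly measure a technical spread. The source names give 72 h for the long exposures while their descriptions say 24 h, and the source names were followed.

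All 8 epithelial marker genes were well above background on all 38 arrays. Of 10 alveolar type II markers, SFTPC, ABCA3 and NAPSA were so on all arrays, SFTPA2 and SFTPD on 37 and LAMP3 on 33, whereas SFTPA1 was on 11, SFTPB on 2, NKX2-1 on 1 and SLC34A2 on none, so defining markers of the labelled cell type were partly absent. Of the endothelial markers KDR and TEK were above background on no array and PECAM1 on 3, but CDH5 was on 37 and VWF on 26. Of the fibroblast markers COL1A2 and PDGFRB were on none, DCN on 1 and COL3A1 on 2, but COL1A1 was on 38 and LUM on 31. COL1A1 measured -2.20 ± 0.25 (SD, n = 3) in 24 h controls and -4.05 ± 0.17 at 6.0 µg/cm2, and -2.64 ± 0.07 and -4.29 ± 0.18 at 72 h. The summed linear level of the 6 leukocyte-list genes with a probe moved between groups, from 0.597 to 0.622 in 24 h controls to 1.54 to 1.70 at 6.0 µg/cm2, and from 2.93 to 3.09 in 72 h controls to 1.62 to 1.78 at 6.0 µg/cm2. Within this list CD68 was higher at 6.0 µg/cm2 than in controls (-1.81 to 0.48 at 24 h, -1.24 to -0.64 at 72 h) while CD14 was lower (-2.07 to -2.76 and 1.32 to -0.07), and CD3E was above background on 7 arrays. The part of these markers in the results was not tested.

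Cells divide by passing through ordered phases. Cyclin E and the E2F factors commit a cell to S phase, CDC6, CDT1 and the MCM helicase load onto replication origins, and cyclin B with CDK1 drives mitosis, in which kinetochores and the spindle align chromosomes until the anaphase-promoting complex (APC/C) releases them. Transcripts of these genes peak in the phase in which they act and are low in resting cells, which is why MKI67 and TOP2A serve as markers of proliferation. In RNA from whole cultures, fewer dividing cells and less RNA per dividing cell cannot be told apart.

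Promoters of this family carry known sequence words. Genes of the S phase entry often hold an E2F word near the start site, and genes of G2 and mitosis often hold a cell cycle homology region (CHR) together with CCAAT boxes. Examples were chosen after the values were seen, as genes that fell at 24 h (MKI67, CCNB2 and KIF11) or rose at 72 h (E2F1, CDC25A and MCM6). The latter genes had also fallen at 24 h, so the examples do not part the genes by time. The RefSeq sequences upstream of the 6 start sites of all these genes (GRCh38.p14) are shown. They are printed 5′ to 3′ on the gene's strand, with capitals marking TTTGAA (CHR), CCAAT and an E2F word, which was either TTCGCGC or else TTGGCGC or else TTCCCGC or else TTGCCGC, each searched on both strands, so a word on the opposite strand is printed as its reverse complement.
MKI67, proliferation marker, chr10:128126424-128126533, minus strand: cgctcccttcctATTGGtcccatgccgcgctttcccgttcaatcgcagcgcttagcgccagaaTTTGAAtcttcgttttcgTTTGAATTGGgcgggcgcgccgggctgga
CCNB2, cyclin B2, chr15:59105016-59105145, plus strand: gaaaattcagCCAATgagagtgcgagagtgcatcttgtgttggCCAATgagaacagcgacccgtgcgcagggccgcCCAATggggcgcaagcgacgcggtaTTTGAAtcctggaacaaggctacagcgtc
KIF11, spindle motor, chr10:92593050-92593129, plus strand: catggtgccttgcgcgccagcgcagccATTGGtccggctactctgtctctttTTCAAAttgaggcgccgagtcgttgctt
E2F1, S phase transcription factor, chr20:33686386-33686505, minus strand: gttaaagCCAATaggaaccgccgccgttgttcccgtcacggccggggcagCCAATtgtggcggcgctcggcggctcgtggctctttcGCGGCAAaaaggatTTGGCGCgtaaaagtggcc
CDC25A, CDK-activating phosphatase, chr3:48188418-48188537, minus strand: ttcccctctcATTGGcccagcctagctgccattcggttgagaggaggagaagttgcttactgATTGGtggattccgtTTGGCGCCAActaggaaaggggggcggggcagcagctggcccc
MCM6, helicase subunit, chr2:135876444-135876603, minus strand: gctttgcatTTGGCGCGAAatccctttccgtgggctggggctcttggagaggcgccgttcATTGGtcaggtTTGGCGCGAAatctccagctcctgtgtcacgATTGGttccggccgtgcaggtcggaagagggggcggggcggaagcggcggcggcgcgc

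The second CHR of MKI67 overlaps an inverted CCAAT box, and the E2F words of CDC25A and MCM6 overlap each other on opposite strands. A promoter window, 250 bases before to 50 after the start, was listed for 40 of the 49 genes. The CHR word was found in 15 of these 40 windows (37.5%) against 15.4% of 27305 windows of the same length, an E2F word in 18 (45.0%) against 13.1%, CCAAT in 28 (70.0%) against 35.7%, and CHR with CCAAT in 12 (30.0%) against 6.08%. All 9 origin licensing and fork genes with a window held an E2F word and none held CHR, whereas CHR was in 3 of 4 centromere genes, 3 of 4 spindle motor and assembly genes and 4 of 7 G2/M genes. A match is only a match of letters.

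Levels below are log2 signals relative to the 75th percentile of the same array, so they are compared between samples of 1 gene and not between genes. The word modulated is kept for genes with an adjusted p (limma, Benjamini-Hochberg over all probes tested) under 0.05 that changed 1.5-fold or more, and a gene is said to have risen or fallen at that adjusted p with any fold. In set C the median level of the 48 genes was 1.73 ± 0.04 (SD, n = 3) in 24 h controls, 1.56 ± 0.10 at 3.0 µg/cm2 and 1.36 ± 0.06 at 6.0 µg/cm2, the lowest of these groups. At 72 h the order was the opposite, with 1.58 ± 0.06 in controls, 1.66 ± 0.02 at 3.0 µg/cm2 and 1.83 ± 0.05 at 6.0 µg/cm2.

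**Figure D1:**
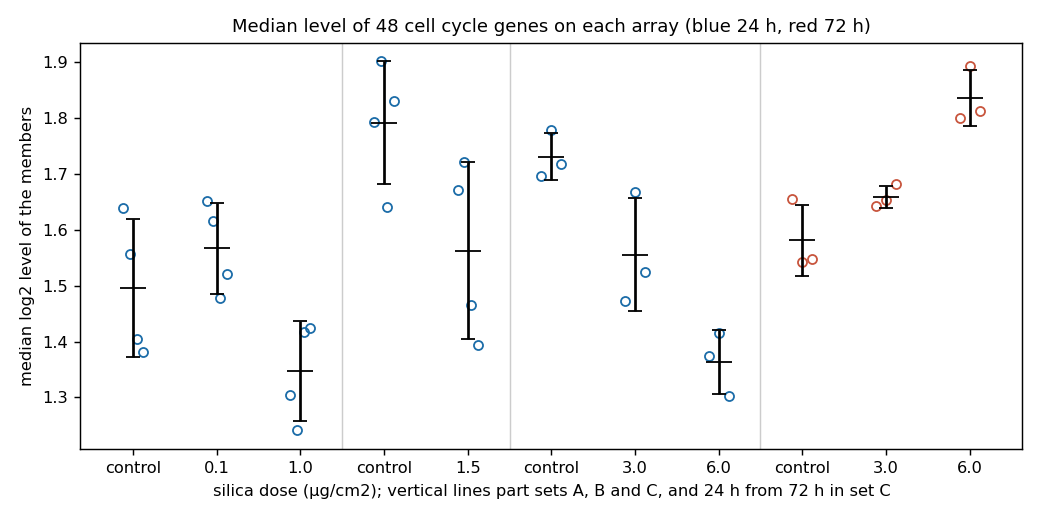
Median level of the 48 genes on each array (log2 signal relative to the array's 75th percentile), by group of dose and time, each point 1 array, with bars giving the group mean ± SD. In set C the group mean falls from a control mean of 1.73 to 1.36 at 24 h and rises from 1.58 to 1.83 at 72 h.

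At the 3 lowest doses the genes moved little. At 0.1 µg/cm2 no gene was modulated (0% of all probes tested were) and 38 of 48 differences were positive, with a median log2 difference of 0.08 beside 0.01 over all probes. At 1.0 µg/cm2 none was modulated (0.00949% of all probes) and the median was -0.03 beside -0.01. At 1.5 µg/cm2 none was modulated, against 2.47% of all probes, and the median was -0.03 beside 0.01. There the median level of the genes was 1.79 ± 0.11 (SD, n = 4) in controls and 1.56 ± 0.16 in exposed samples, further apart than the median of the differences, so levels and differences were both reported. The count at an unadjusted p under 0.05 was 3, 6 and 6 of 48 at these doses, beside 2049 of 21697, 3705 of 21079 and 3507 of 21020 probes, which are larger shares.

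At 1.5 µg/cm2, 1 gene of 48 rose, a share no larger than the 3.26% of all probes that rose. It was MKI67, whose protein coats mitotic chromosomes. Its level was 0.88, 0.79, 0.81 and 0.76 in the 4 controls and 1.44, 1.38, 1.35 and 1.34 in the 4 exposed samples. The groups did not overlap, and the log2 difference was 0.56 (adjusted p = 0.00512). Controls and exposed samples were scanned in pairs on separate days, and the difference was 0.57 and 0.56 within the days. Each group held its own position on the slides, so position and dose cannot be told apart. The other MKI67 probes gave 0.76 (adjusted p = 0.0163) and 0.05 (adjusted p = 0.795), so they disagree on the rise.

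RRM2, the regulated subunit of ribonucleotide reductase, which makes deoxynucleotides, showed how far arrays of the same group could differ at 1.5 µg/cm2. It measured 0.07, 0.38, 0.47 and 0.55 in controls and -0.11, -0.03, -1.27 and -1.35 in exposed samples. All exposed values lay under all control values, but by 0.29 on one scan day and 1.82 on the other, and the fitted difference of -1.06 did not pass the test (adjusted p = 0.142). Scan day, slide and culture cannot be told apart in this split.

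At 24 h and 3.0 µg/cm2, 17 of 48 genes fell and none rose, against 6.5% of all probes that fell. No gene was modulated, against 2.88% of all probes. The median was -0.20 beside -0.01 over all probes, and 44 genes had a negative difference. By role, the 17 that fell were 6 of 9 G2/M cyclins, kinases and transcription factors, 4 of 5 spindle motor and assembly genes, 3 of 4 centromere and kinetochore genes, 2 of 5 spindle checkpoint and APC/C genes, 1 of 2 passenger complex genes and 1 of 11 licensing and fork genes, with none among the 5 G1/S regulators, the 3 deoxynucleotide genes, CHEK1 and BRCA1, or MKI67 and TOP2A. The difference between roles was not tested. KIF20A, the motor of the late spindle, had the largest fall with a log2 difference of -0.39 ± 0.04 (SE). This count was sensitive, being 7 with the slide as a block and 3 to 11 when 1 array was left out (3 without control replicate 2 or without exposed replicate 1). The medians within the 3 slides, each holding 1 array of either group, were nevertheless -0.20, -0.18 and -0.18.

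At 24 h and 6.0 µg/cm2, 42 of 48 genes fell and none rose, where 20% of all probes fell. In 43 genes every exposed array lay below every control array, against 29.2% of all probes. The falls were modest. The median was -0.39 beside -0.03 over all probes, 46 of 48 differences were negative, and 3 genes (CENPF, MKI67 and NDC80) passed the fold threshold, where 5.37% of all probes were modulated downward. The share of modulated genes was thus near the background, unlike that of genes that fell. Within the 3 slides the median was -0.38, -0.39 and -0.39, with 46, 47 and 47 genes lower. On these slides controls and both doses each held the same position throughout, so position and dose cannot be told apart. With the replicate number, which is also the slide, as a block, 36 genes fell and 2 were modulated. Of the genes that fell, CCNB1, CENPF, MCM5 and PCNA had another probe that fell too. The other probes of KIF23 (-0.21, adjusted p = 0.0728) and MCM7 (-0.11, adjusted p = 0.351) did not pass the test. Neither did those of MKI67 (-0.43, adjusted p = 0.0571, and -0.47, adjusted p = 0.0662).

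**Figure D2:**
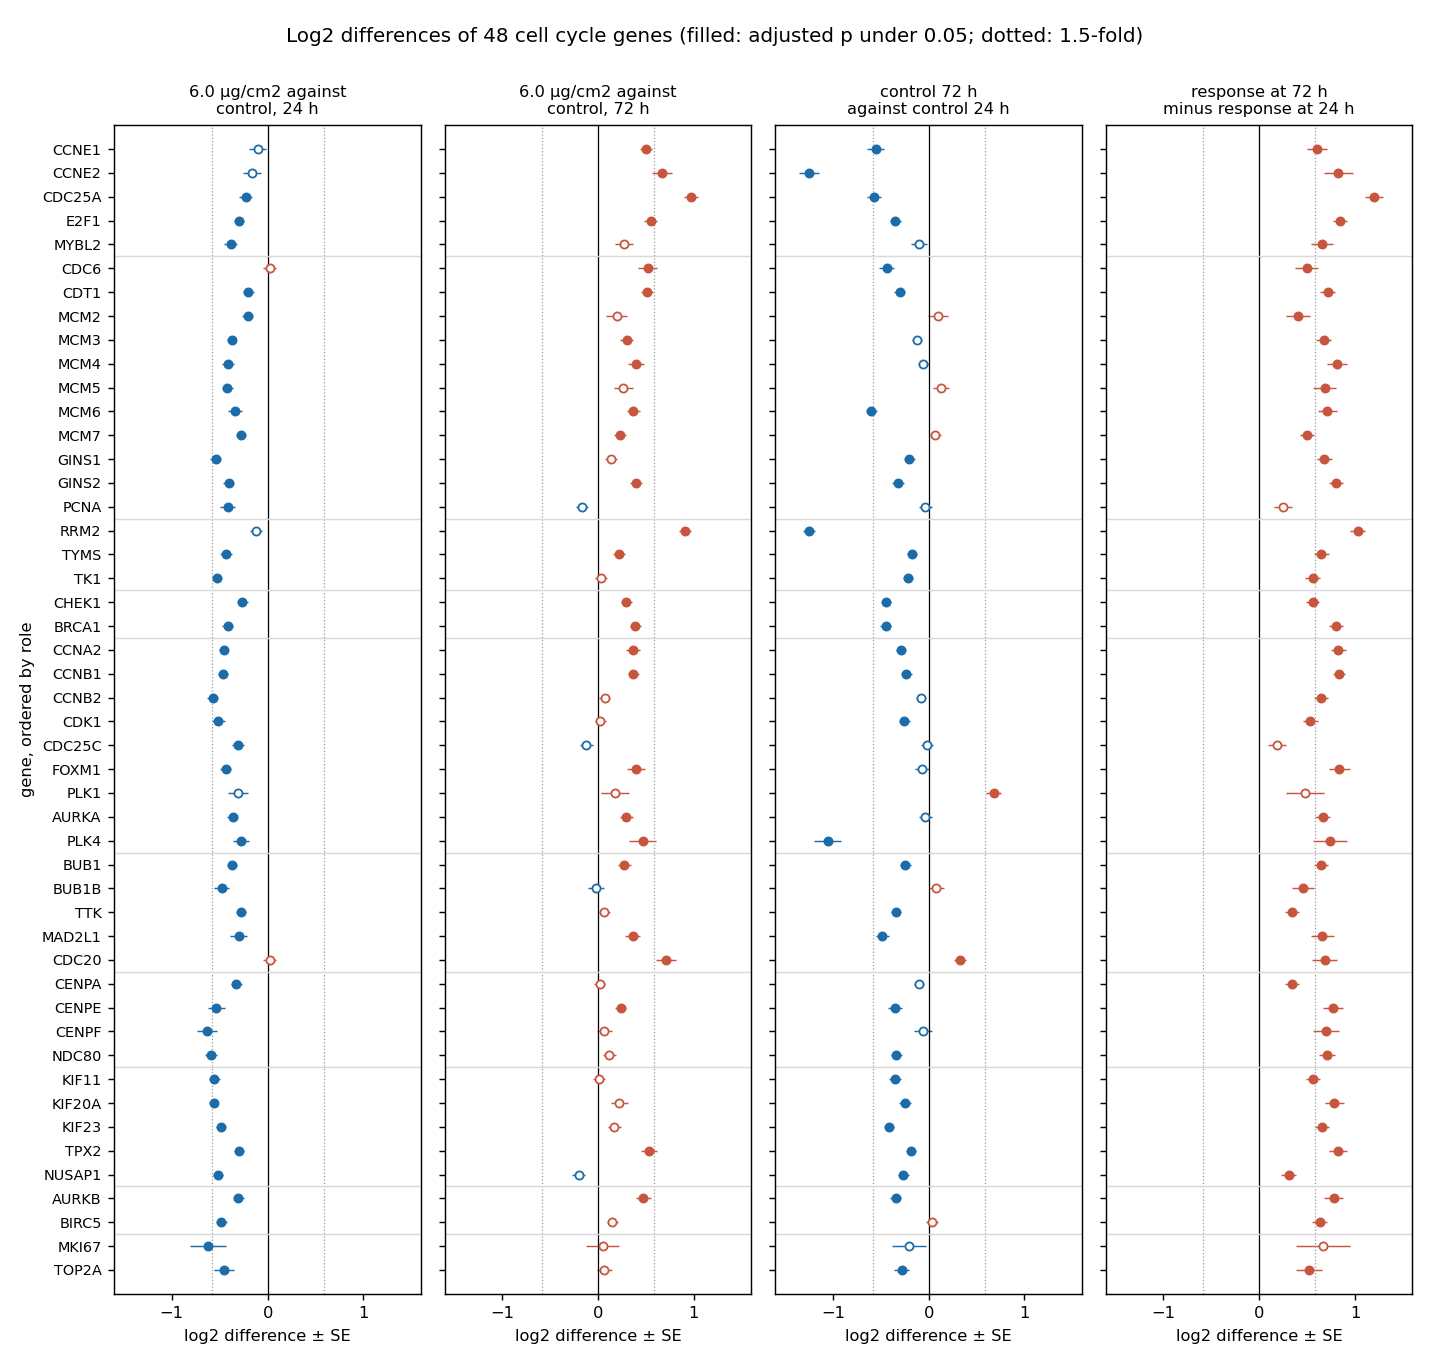
Log2 difference of each of the 48 genes (points with SE, ordered by role) at 6.0 µg/cm2 for 24 h and 72 h, between the control times, and for the response at 72 h minus that at 24 h, with filled points where the adjusted p was under 0.05. At 6.0 µg/cm2 the points lie mostly below 0 at 24 h (46 of 48) and mostly above 0 at 72 h (44 of 48).

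The largest falls at 24 h and 6.0 µg/cm2 were those of CENPF, MKI67 and NDC80. Other roles reached nearly as far, with a largest fall of -0.57 among G2/M genes and -0.56 among spindle motor and assembly genes. CENPF, a kinetochore and centromere protein of G2 and mitosis, measured 3.42, 3.72 and 3.66 in 24 h controls, 3.30, 3.26 and 3.12 at 3.0 µg/cm2 and 3.11, 2.96 and 2.84 at 6.0 µg/cm2. The 3 groups did not overlap. The log2 difference at 6.0 µg/cm2 was -0.63 ± 0.10 (adjusted p = 0.00523), a 1.55-fold fall. NDC80, which ties kinetochores to microtubules, measured 1.24, 1.26 and 1.22 in controls, 0.89, 1.00 and 0.86 at 3.0 µg/cm2 and 0.73, 0.66 and 0.56 at 6.0 µg/cm2, again without overlap. Its difference at 6.0 µg/cm2 was -0.59 ± 0.06 (adjusted p = 0.000831), a 1.50-fold fall at the edge of the threshold.

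MKI67 was the noisiest of the 3 modulated genes. It measured 0.27, 0.74 and 0.91 in controls and 0.23, 0.07 and -0.24 at 6.0 µg/cm2, so the lowest control lay just above the highest exposed array. The difference was -0.62 ± 0.19 (adjusted p = 0.0463), and this call was lost with the replicate block (adjusted p = 0.114) and when any array but control replicate 1 was left out (adjusted p = 0.0565 to 0.134). Neither of the other MKI67 probes passed the test. TOP2A, the topoisomerase that disentangles replicated chromosomes, measured 2.23, 2.48 and 2.42 in controls, 2.15, 2.16 and 2.12 at 3.0 µg/cm2 and 2.07, 1.95 and 1.74 at 6.0 µg/cm2. Its groups did not overlap, and it fell by 0.45 ± 0.10 (adjusted p = 0.0176).

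Among the G2/M genes, 8 of 9 fell with a median of -0.44. CDK1, the mitotic kinase, measured 2.49, 2.50 and 2.40 in controls, 2.17, 2.24 and 2.13 at 3.0 µg/cm2 and 2.02, 1.98 and 1.85 at 6.0 µg/cm2. It stepped down at each dose without overlap and fell by 0.51 ± 0.07 at 6.0 µg/cm2 (adjusted p = 0.00191). CCNB1, cyclin B1, its activating partner, measured 3.86, 3.78 and 3.73 in controls, 3.49, 3.52 and 3.54 at 3.0 µg/cm2 and 3.36, 3.32 and 3.31 at 6.0 µg/cm2. The same stepwise order without overlap was seen, with a fall of 0.46 ± 0.06 (adjusted p = 0.00149). FOXM1, a transcription factor that drives G2/M genes, measured 1.80, 1.83 and 1.85 in controls and 1.32, 1.41 and 1.44 at 6.0 µg/cm2, a fall of 0.44 ± 0.06 (adjusted p = 0.00189). PLK1, a kinase of mitotic entry, was the gene of this role that missed the threshold, at -0.31 (adjusted p = 0.0659), although its other probe fell by 0.29 (adjusted p = 0.0325). All 5 spindle motor and assembly genes fell (median -0.51), with KIF20A at -0.56 and KIF11, whose promoter is shown above, at -0.56. Both genes of the chromosomal passenger complex, the Aurora B kinase gene AURKB and the survivin gene BIRC5, fell too. Of the 5 spindle checkpoint and APC/C genes 4 fell.

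Most replication genes fell as well. Of the 11 licensing and fork genes 10 fell, with a median of -0.38. PCNA, the sliding clamp of the DNA polymerases, measured 4.41, 4.32 and 4.23 in controls and 3.98, 3.93 and 3.80 at 6.0 µg/cm2, and it fell by 0.42 ± 0.07 (adjusted p = 0.00689). MCM2, a subunit of the helicase, measured 2.58, 2.46 and 2.50 in controls and 2.31, 2.29 and 2.33 at 6.0 µg/cm2, a fall of 0.21 ± 0.05 (adjusted p = 0.0273). CDC6, which loads the helicase, did not pass the test, with -2.88, -2.72 and -2.83 in controls and -2.70, -2.79 and -2.86 at 6.0 µg/cm2 (log2 difference 0.02, adjusted p = 0.822). CHEK1, the kinase that restrains the cycle when forks stall, measured 0.52, 0.53 and 0.50 in controls and 0.32, 0.25 and 0.18 at 6.0 µg/cm2 and fell by 0.26 ± 0.06 (adjusted p = 0.0129).

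The G1/S regulators divided. E2F1 measured 0.92, 0.86 and 0.86 in controls, 0.78, 0.76 and 0.80 at 3.0 µg/cm2 and 0.57, 0.60 and 0.58 at 6.0 µg/cm2, a fall of 0.30 ± 0.05 at the higher dose (adjusted p = 0.00539). CDC25A, the phosphatase that activates the kinases of S phase entry, fell by 0.23 ± 0.07 (adjusted p = 0.0456), and MYBL2, a transcription factor of S phase entry, fell by 0.38. The E cyclins did not pass the test, with CCNE1 at -0.10 (adjusted p = 0.387) and CCNE2 at -0.16 (adjusted p = 0.239), although the dimmer CCNE2 probe fell by 0.41 (adjusted p = 0.0321). RRM2, at -0.12 (adjusted p = 0.192), and CDC20, the APC/C activator of mitotic exit, at 0.02 (adjusted p = 0.837), did not pass either. With CDC6 and PLK1 these were the 6 genes of 48 that did not fall by the probe used, RRM2 and the others being named here after their values were seen.

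The 6.0 and 3.0 µg/cm2 samples of 24 h were also compared directly, since both comparisons above share controls. In this comparison 11 of 48 genes were lower at 6.0 µg/cm2 (5.35% of all probes were), and 41 had no overlap in that direction (19.8% of all probes). The median was -0.20 beside -0.03, with 47 of 48 differences negative. The calls were not stable, with 15 under the replicate block but 0 with normexp background, with series matrix values or without a filter on dim probes. With 1 array left out, the count was 2 without 6.0 µg/cm2 replicate 1 and 0 without any of the others.

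At 72 h the picture was another. After 3.0 µg/cm2, 11 of 48 genes were higher than in 72 h controls (12.9% of all probes were) and none lower, none was modulated (5.9% of all probes), and the median was 0.14 beside 0.03. Of the 5 G1/S regulators 4 rose, among them CDC25A by 0.49 and CCNE2 by 0.40. Without control replicate 2, 1 gene was left past the threshold, without exposed replicate 2 or 3 there were 3, and with the replicate block 1. After 6.0 µg/cm2, 26 of 48 genes rose (23.8% of all probes rose) and none fell, 4 were modulated upward (6.63% of all probes), and 32 had no overlap with the controls in that direction (30.9% of all probes). The share of modulated genes was thus near the background, unlike that of genes that rose. The median was 0.27 beside 0.04, with 44 differences positive. Under quantile normalization 24 genes rose and 2, PCNA and NUSAP1, fell. The exposed arrays of 72 h were scanned on another day and on other slides than their controls, so scan day and exposure cannot be told apart in these comparisons.

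The 4 modulated genes were CDC25A, RRM2, CDC20 and CCNE2. CDC25A measured -0.71, -0.84 and -0.84 in 72 h controls, -0.34, -0.31 and -0.27 at 3.0 µg/cm2 and 0.11, 0.16 and 0.24 at 6.0 µg/cm2. It stepped up with dose, without overlap, by 0.97 ± 0.07 at 6.0 µg/cm2 (adjusted p = 0.000146), or 1.96-fold. RRM2 measured -0.68, -0.63 and -0.67 in controls, -0.66, -0.47 and -0.44 at 3.0 µg/cm2 and 0.19, 0.30 and 0.26 at 6.0 µg/cm2. Only the higher dose stood clearly apart, by 0.91 ± 0.06 (adjusted p = 0.000106), or 1.88-fold, and RRM2 was also the 1 gene modulated between 6.0 and 3.0 µg/cm2 at 72 h (0.77; 1.09% of all probes were modulated upward). CDC20 measured 1.24, 1.24 and 1.37 in controls, 1.41, 1.53 and 1.48 at 3.0 µg/cm2 and 1.81, 1.98 and 2.18 at 6.0 µg/cm2, a rise of 0.70 ± 0.10 (adjusted p = 0.00237). CCNE2, cyclin E2, measured -3.09, -2.94 and -2.84 in controls, -2.40, -2.65 and -2.61 at 3.0 µg/cm2 and -2.15, -2.27 and -2.45 at 6.0 µg/cm2. It rose by 0.67 ± 0.11 at 6.0 µg/cm2 (adjusted p = 0.00297), although its dimmer probe gave 0.30 (adjusted p = 0.384).

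Of these 4, RRM2, CDC20 and, by its brighter probe only, CCNE2 did not pass the test at 24 h, and CDC25A had changed in the opposite direction. CCNE1 measured 2.51, 2.52 and 2.58 in 72 h controls, 2.78, 2.76 and 2.84 at 3.0 µg/cm2 and 3.04, 2.99 and 3.08 at 6.0 µg/cm2, a rise of 0.50 ± 0.06 (adjusted p = 0.001) with no overlap between the groups. E2F1 measured 0.60, 0.48 and 0.50 in controls, 0.72, 0.76 and 0.74 at 3.0 µg/cm2 and 1.03, 1.07 and 1.13 at 6.0 µg/cm2. It rose by 0.55 ± 0.07 (adjusted p = 0.00101), its groups ranked in the order opposite to that at 24 h. CDC6 rose by 0.52 ± 0.10 (adjusted p = 0.00665), from -3.16, -3.37 and -3.21 to -2.78, -2.56 and -2.85.

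**Figure D3:**
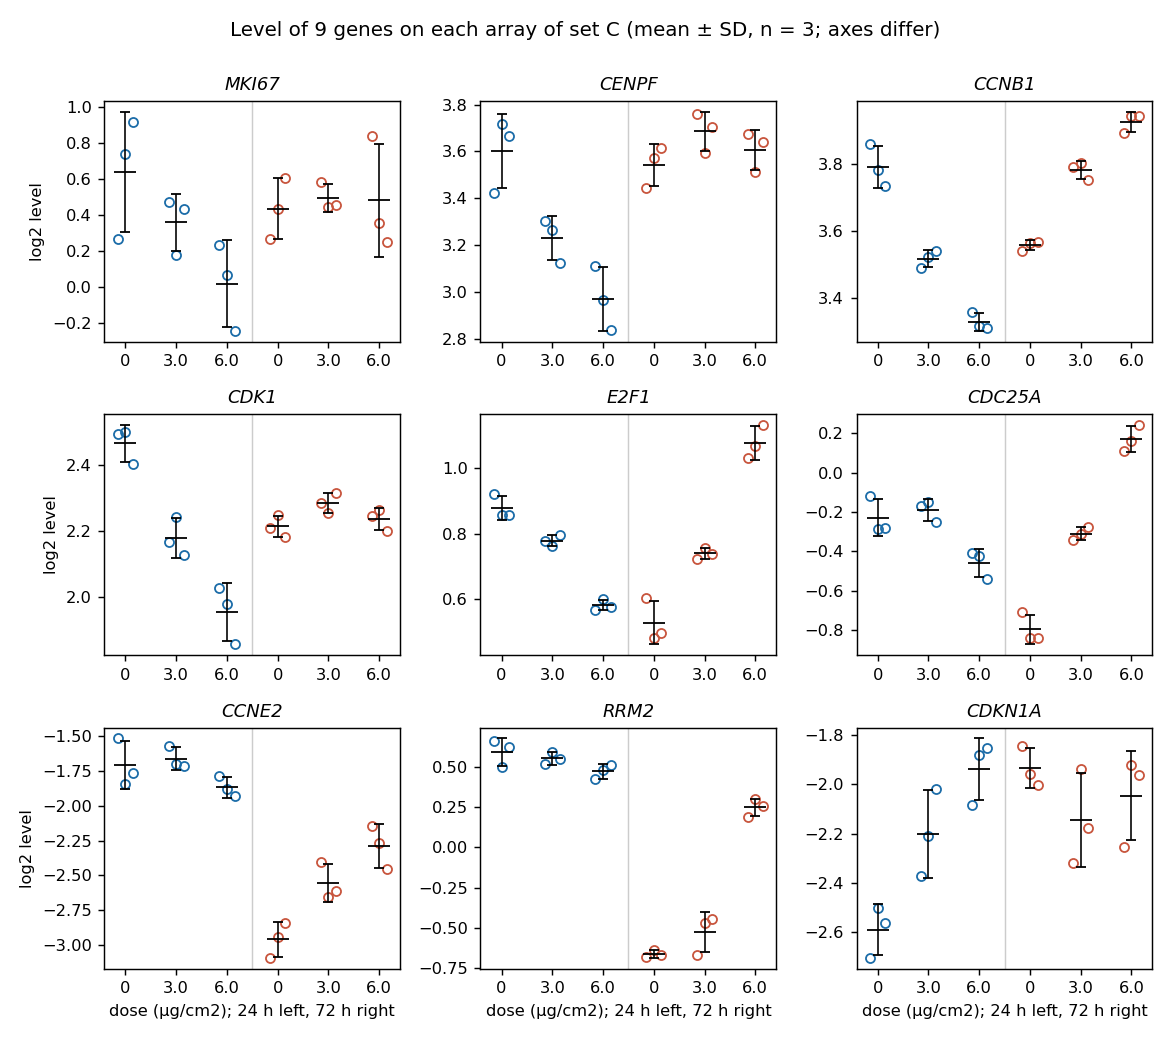
Levels of MKI67, CENPF, CCNB1, CDK1, E2F1, CDC25A, CCNE2, RRM2 and the brake CDKN1A on each array of set C, by dose at 24 h (blue) and 72 h (red) (log2 signal relative to the array's 75th percentile), each point 1 array, with mean ± SD bars and an axis of its own for each gene. CDK1 and CENPF step down with dose at 24 h and overlap with their controls at 6.0 µg/cm2 and 72 h, whereas CDC25A and E2F1 step up with dose at 72 h, CDC25A from a lowest control of -0.84 to 0.24.

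The share of genes that rose at 72 h varied with role, a difference that was not tested. Of the 5 G1/S regulators 4 rose (median 0.55), of the 11 licensing and fork genes 7 (0.30), of the 3 deoxynucleotide synthesis genes 2 (0.22), and both CHEK1 and BRCA1. Among the later roles, 5 of 9 G2/M genes (median 0.30), 3 of 5 spindle checkpoint and APC/C genes (0.27) and 1 of 2 passenger complex genes rose, beside 1 of 4 centromere and kinetochore genes (0.09), 1 of 5 spindle motor and assembly genes (0.17) and neither MKI67 nor TOP2A. CDK1 measured 2.21, 2.25 and 2.18 in controls and 2.24, 2.26 and 2.20 at 6.0 µg/cm2 (difference 0.02, adjusted p = 0.773), and CENPF 3.44, 3.57 and 3.61 and 3.67, 3.51 and 3.64 (0.07, adjusted p = 0.523). MKI67 overlapped between controls (0.27, 0.43 and 0.61) and exposed arrays (0.84, 0.36 and 0.25). The G2/M genes that rose included CCNB1, by 0.37 ± 0.06 (adjusted p = 0.00255) from 3.54, 3.57 and 3.57 to 3.89, 3.95 and 3.95, although its other probe gave 0.10 (adjusted p = 0.306), and FOXM1, which rose by 0.40 ± 0.09 (adjusted p = 0.0143). PCNA lay lower without passing the test (-0.17, adjusted p = 0.0778), and its other probe fell by 0.30 (adjusted p = 0.0217). The helicase genes MCM3, MCM4, MCM6 and MCM7 rose, by 0.23 to 0.40, whereas MCM2 and MCM5 (0.26, adjusted p = 0.0748) did not pass the test. The other MCM7 probe did not pass either (0.24, adjusted p = 0.194). Between 6.0 and 3.0 µg/cm2 at 72 h, 10 of 48 genes were higher (6.81% of all probes were) and the median was 0.15 beside -0.01. This count was 2 without a filter on dim probes, without any 1 of the 3.0 µg/cm2 arrays or without 6.0 µg/cm2 replicate 2, and 6 without 6.0 µg/cm2 replicate 3.

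Sorted by the promoter words above, the genes with CHR and no E2F word (n = 11) had a median difference at 6.0 µg/cm2 of -0.49 at 24 h and 0.07 at 72 h. Those with an E2F word and no CHR (n = 14) had medians of -0.32 and 0.33. Genes with neither word (n = 11) lay close to these, at -0.38 and 0.29, as did genes without a listed window (n = 8), at -0.39 and 0.35. Genes with both words (n = 4) had medians of -0.42 and 0.02. These medians are a description of genes that share arrays and were not tested, and CCNE2 and FOXM1 are among the genes without a listed window. Single genes departed from these medians, since CDC20, with CHR and no E2F word, gave 0.70 at 72 h, and RRM2, with neither, gave 0.91.

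Unexposed cells changed with time as well, which sets the base for the 72 h comparisons. Between 24 h and 72 h in serum-free medium, 30 of 48 genes fell (24.9% of all probes fell) and 2, PLK1 and CDC20, rose (34.3% of all probes rose). Of these, 4 were modulated downward (6.72% of all probes) and 1 upward (13.4%). The median was -0.25 beside 0.06 over all probes, and within the 3 slides it was -0.24, -0.24 and -0.22. The control samples of both times shared slides and scan day. Each time held its own position on the slides, so position and time cannot be told apart.

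RRM2 had the largest fall, from 0.66, 0.50 and 0.62 at 24 h to -0.68, -0.63 and -0.67 at 72 h, which is -1.25 ± 0.06 (adjusted p = 5.52e-05) or 2.38-fold. CCNE2 fell by 1.25 ± 0.11 (adjusted p = 0.000266) from -1.52, -1.84 and -1.76. PLK4, the kinase that starts centriole duplication, measured -1.61, -1.75 and -1.62 at 24 h and -3.04, -2.62 and -2.48 at 72 h and fell by 1.05 ± 0.14 (adjusted p = 0.00135). None of these genes overlapped between the times. MCM6 was the fourth, falling by 0.60 from 3.01, 3.00 and 2.95 to 2.31, 2.42 and 2.42. PLK1 ran against them, rising by 0.68 ± 0.08 (adjusted p = 0.00073) from 0.68, 0.49 and 0.55 to 1.36, 1.17 and 1.22, and its other probe rose too (0.64, adjusted p = 0.00031).

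Several G1/S genes therefore fell in controls before the 72 h comparison was made. CCNE1 fell by 0.55, CDC25A by 0.57, CHEK1 by 0.45, CDC6 by 0.44 and E2F1 by 0.35 between the times. After 72 h at 6.0 µg/cm2, CCNE1 (2.99 to 3.08) again lay within the range of the 24 h controls (2.95 to 3.27), E2F1 (1.03 to 1.13) lay above it (0.86 to 0.92) and RRM2 (0.19 to 0.30) below it (0.50 to 0.66). FOXM1 (-0.07, adjusted p = 0.422), PCNA (-0.04, adjusted p = 0.678), MCM2 (0.10, adjusted p = 0.451) and CENPF (-0.06, adjusted p = 0.609) did not pass the test between the control times. CDK1 fell by 0.25 ± 0.06 (adjusted p = 0.00824), CCNB1 by 0.23 ± 0.06 (adjusted p = 0.0112) and TOP2A by 0.28 ± 0.07 (adjusted p = 0.0173).

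The change in response between the times was tested as an interaction over the same arrays. For 6.0 µg/cm2 it was positive in all 48 genes by the probes used, with a median of 0.66 beside 0.05 over all probes. It passed the test in 44 genes (20.4% of all probes did, in that direction) and was modulated in 32 (8.11% of all probes). CDC25A differed most, by 1.20 ± 0.10 (adjusted p = 1.75e-05), followed by RRM2 at 1.03 ± 0.08 (adjusted p = 1.4e-05). The 4 genes that did not pass were PCNA (0.25, adjusted p = 0.0619), CDC25C (0.19, adjusted p = 0.129), PLK1 (0.48, adjusted p = 0.0794) and MKI67 (0.67, adjusted p = 0.0872). The other PCNA probe gave -0.0021 (adjusted p = 0.989). The other MKI67 probes gave 0.55 (adjusted p = 0.0307) and 0.41 (adjusted p = 0.219), so 1 of them passed. For 3.0 µg/cm2, 29 genes passed (10.7% of all probes) with a median of 0.31 beside 0.03, and 1 was modulated (2.12% of all probes), the kinetochore motor CENPE at 0.60.

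The same interaction arose from different values in different genes. CDK1 had an interaction of 0.54 ± 0.08 (adjusted p = 0.000608), from -0.51 at 24 h and 0.02 at 72 h, and NDC80 one of 0.71 ± 0.08 (adjusted p = 0.000155), from -0.59 and 0.12. CCNE2, by its brighter probe, had 0.83 ± 0.15 (adjusted p = 0.0018), from -0.16 and 0.67, and CDC20 had 0.68 ± 0.13 (adjusted p = 0.00219), from 0.02 and 0.70. The dimmer CCNE2 probe did not pass, at 0.71 (adjusted p = 0.103), from -0.41 and 0.30. E2F1 (0.84), FOXM1 (0.84) and, by its brighter probe, CCNB1 (0.83) fell at 24 h and rose at 72 h. The 72 h exposed arrays have their own scan day here as well.

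CDKN1A, which encodes the CDK inhibitor p21 and is no member of the 49, is given as the best known brake. It measured -2.70, -2.50 and -2.56 in 24 h controls, -2.37, -2.21 and -2.02 at 3.0 µg/cm2 and -2.08, -1.88 and -1.85 at 6.0 µg/cm2. It rose by 0.65 ± 0.09 at 6.0 µg/cm2 (adjusted p = 0.00222), without overlap with the controls. In 72 h controls it stood at -1.84, -1.96 and -2.00, higher than in 24 h controls by 0.66 ± 0.08 (adjusted p = 0.000738). At 72 h and 6.0 µg/cm2 it measured -2.25, -1.92 and -1.96 (difference -0.11, adjusted p = 0.418), and its interaction was -0.76 ± 0.14 (adjusted p = 0.00213), opposite in sign to that of the 48 genes.

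Further genes of the pathway were counted in lists outside the 49. Of 61 other mitosis genes 53 fell at 24 h and 6.0 µg/cm2, 14 of them modulated, and none rose, as did 32 of 43 other replication genes and 17 of 22 genes of homologous recombination and fork repair, with none rising, beside 20% of all probes that fell and 14.2% that rose. ASPM, a spindle pole protein, fell by 0.73 ± 0.08 (adjusted p = 0.00119), CLSPN, the fork checkpoint mediator claspin, by 0.77 ± 0.08 (adjusted p = 0.000814), and FANCD2 of the Fanconi repair pathway by 0.61 ± 0.09 (adjusted p = 0.00376). At 72 h, 21 of the 61 mitosis genes rose and 1 fell, 24 of the 43 replication genes rose and none fell, and 11 of the 22 repair genes rose and 2 fell, beside 23.8% of all probes that rose and 22% that fell. UHRF1, which maintains DNA methylation behind the fork, rose by 0.64 ± 0.08 (adjusted p = 0.00117), and NCAPG, a condensin subunit, by 0.68 ± 0.08 (adjusted p = 0.000949). In controls between the times 39 mitosis, 24 replication and 13 repair genes fell, and 3, 0 and 1 rose, beside 24.9% of all probes that fell and 34.3% that rose.

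**Figure D4:**
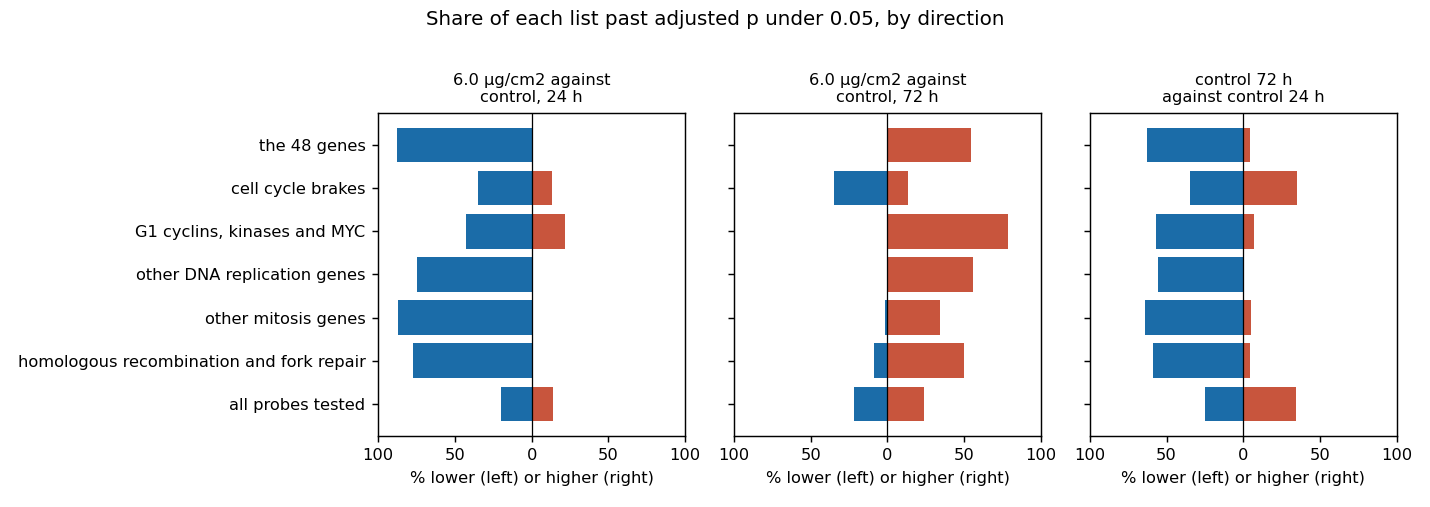
Percent of genes that fell (bars to the left) or rose (bars to the right) among the 48 genes, 5 other pathway lists and all probes tested, at 6.0 µg/cm2 for 24 h and 72 h and between the control times. Among 61 other mitosis genes 53 were lower at 24 h and 21 higher at 72 h.

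Genes around the G1 decision were mixed. Of 14 G1 cyclin, kinase and MYC genes tested, 6 fell and 3 rose at 24 h, whereas 11 rose and none fell at 72 h. MYC, a growth-promoting transcription factor, rose by 0.93 ± 0.07 at 72 h (adjusted p = 0.000171) after falling by 0.71 ± 0.06 between the control times (adjusted p = 0.000266). CCND3, cyclin D3, fell by 0.71 ± 0.07 at 24 h (adjusted p = 0.000823). Of 23 brakes tested, 8 fell and 3 rose at either time, where 20% of all probes fell and 14.2% rose at 24 h, and 22% fell and 23.8% rose at 72 h. CDKN2C, an inhibitor of the cyclin D kinases, fell at 24 h (-0.97 ± 0.06, adjusted p = 0.000107), in the direction opposite to CDKN1A. CDKN1C, which encodes the inhibitor p57, fell by 1.57 ± 0.09 at 72 h (adjusted p = 6.76e-05) after rising by 1.15 ± 0.06 between the control times (adjusted p = 5.39e-05), and BTG2, an antiproliferative gene, rose by 1.13 ± 0.19 between them (adjusted p = 0.00313).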

How the data were processed

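Per the labels, total RNA was labelled with Cy3 and hybridised to Agilent Human V2 4x44K arrays. The files deposited by the authors hold intensity values from Agilent Feature Extraction 10.10.1.1 and 11.0.1.1, with 1 processed signal (background-subtracted, linear) per spot. The deposited series matrix holds the median intensity of the same 43118 spots, identical within 0.01. Here, spots flagged as outliers or non-uniform (0.612%) were left out, spots of 1 probe were averaged to 34127 probes, and log2 signals were set relative to the 75th percentile of each array (740.4 to 3202 in linear units). Between 54.3% and 73.5% of probes were well above background and none was saturated, and the number of arrays limits the precision. Probes were named through transcript accessions in the RefSeq annotation of GRCh38.p14, and 25715 had 1 symbol. No columns of other series were present.

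Each group was compared with the controls of its own set and time in limma 3.58.1 (R 4.3.3, statmod 1.5.0), without pairing, over the probes that all arrays of 1 or both groups measured well above background, with Benjamini-Hochberg adjustment over all probes tested. The scripts were tested on simulated data. The genes, lists and tests were chosen with earlier results of these data known. Values on every array are given for the 3 modulated genes with the largest rise and fall at 6.0 µg/cm2 and between control times, and for MKI67, TOP2A, CCNB1, CDK1, CCNE1, CCNE2, CDC6, E2F1, MCM2, PCNA, CHEK1, FOXM1 and CDKN1A, and of each other list at most 2 modulated genes per direction are named. Alternatives were background correction (normexp, offset 50, on median signals), quantile or median scaling, dim probes all kept or left out where dim in either group, flagged spots kept, the series matrix, all arrays of a set in 1 fit, slide or replicate blocks, pairs of replicates as random blocks, 3 of 4 replicates at 1.5 µg/cm2, the mean of a gene's probes, the methods' t-test, the adjusted p alone, and leaving out each array. The scan-day analyses at 1.5 µg/cm2 and the alternatives for counts at any fold were added after seeing the data.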

Additional observations from a re-analysis of the deposited data

Results flagged for a closer look

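On 2 occasions 1 array stood far from its group, among 100 gene and group combinations of 4 arrays examined. Chance gives about 1 in 20 only where the 4 arrays are independent, which the titles and methods leave unsettled. In the set B controls the highest array of MCM2, replicate 2, was separated from its nearest neighbour by 0.937 of the group's range. In the samples given 1.5 µg/cm2 the lowest array of CDC20, replicate 3, was separated by 0.895.

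The response of the 48 genes differed between 72 h and 24 h by a test of the difference itself (limma interaction). At 3.0 µg/cm2 it differed in 29 genes, 1 of them modulated, and at 6.0 µg/cm2 in 44, of which 32 were modulated. At 6.0 µg/cm2 the log2 response at 72 h exceeded that at 24 h by 1.20 in CDC25A, 1.03 in RRM2, 0.84 in E2F1, 0.84 in FOXM1, 0.83 in CCNE2 and 0.83 in CCNB1. The excess was 0.74 in PLK4, 0.71 in NDC80, 0.70 in CENPF, 0.68 in CDC20 and 0.61 in CCNE1. The exposed arrays of 72 h were scanned on a day of their own, so scan day and time of exposure cannot be told apart in these values.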

How the results depend on the processing

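Of 416 counts recomputed under an alternative, 356 stayed within 1.5 times the reported count and 60 did not. Of 368 values of single genes 337 kept their direction and their side of the threshold and 31, in CCNE1, CCNE2, CENPF, MCM6, MKI67 and NDC80, were no longer modulated, and of 582 values of genes in the other lists 57 did. The 42 falls at 6.0 µg/cm2 and 24 h became 28 with normexp background and 34 to 37 with 1 array left out. The 26 rises at 6.0 µg/cm2 and 72 h became 29 with normexp and 20 to 28 with 1 array left out. The 30 falls between control times became 32 with normexp and 26 to 30 with 1 array left out. The 44 interactions at 6.0 µg/cm2 became 40 with normexp and 43 to 45 with 1 array left out. These counts moved by no more than 1.5 times under every alternative run.

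Counts of modulated genes rested on the fold threshold. With the adjusted p alone they became 1 at 1.5 µg/cm2, 17 and 42 at 3.0 and 6.0 µg/cm2 at 24 h, 11 and 26 at 72 h, 32 between control times, 29 for the interaction at 3.0 µg/cm2, and 11 and 10 for 6.0 against 3.0 µg/cm2 at 24 h and 72 h. At 6.0 µg/cm2 and 24 h, the 3 modulated genes became 5 with normexp background, 1 with quantile normalization, 1 with series matrix values and 0 to 4 with 1 array left out, being 1 without control replicate 2 and 0 without exposed replicate 3. At 1.5 µg/cm2 the count became 1 with normexp and with series matrix values, and 0 to 1 with 1 array left out. For the interaction at 3.0 µg/cm2 it became 0 with series matrix values and 0 to 2 with 1 array left out, and for 6.0 against 3.0 µg/cm2 at 72 h it was 1 to 3. At 6.0 µg/cm2 and 24 h, MKI67 had adjusted p from 0.0137 to 0.136 over all alternatives.

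Counts at any fold were less stable at 3.0 µg/cm2. The 17 falls at 24 h became 3 without a filter, 26 with all arrays in 1 fit, 8 with series matrix values, 7 with the replicate or slide block, and 3 to 11 with 1 array left out. The 11 rises at 72 h became 1 without a filter, 18 with all arrays in 1 fit, 1 with the replicate block, and 1 to 10 with 1 array left out. For 6.0 against 3.0 µg/cm2, the 11 falls at 24 h became 0 with normexp, without a filter and with series matrix values, 23 with all arrays and 0 to 2 with 1 array left out, and the 10 rises at 72 h became 2 without a filter, 20 with all arrays, 16 with slide as a random block and 2 to 10 with 1 array left out. The causes were not tested, beyond more probes being adjusted over without a filter and fewer samples with 1 left out.

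Replicate numbers paired the samples only in 6.0 against 3.0 µg/cm2, where the deviations of samples with the same number correlated in every pair (0.25 to 0.29 at 24 h, 0.15 to 0.60 at 72 h). In the other comparisons not every pair correlated above 0.1. Samples of the same number also shared a slide in set C at 24 h, between the control times, and at 1.5 µg/cm2 (correlations of 0.07 to 0.47), where the block left 0 genes modulated. Slide as a random block could not be fitted at 3.0 µg/cm2 and 72 h, and at 6.0 µg/cm2 each slide held 1 array of the comparison. Among all modulated probes, the share that rose moved from 42.4% to 55.5% with normexp at 6.0 µg/cm2 and 24 h, from 66.6% to 50.9% with quantile and 55.5% with median scaling between control times, from 39.8% to 50.2% with median scaling for the interaction at 3.0 µg/cm2, and for 6.0 against 3.0 µg/cm2 from 42.4% to 54.3% at 24 h and from 22.5% to 34.4% at 72 h with quantile normalization.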
